A study of Homo sapiens with 6 samples.

Results

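Expressed ZNF genes are the protein-coding genes named ZNF with a number whose FPKM (a level scaled by gene length and sequencing depth) averaged at least 2 over all 6 libraries. That threshold kept 99 of the 478 protein-coding ZNF genes in the table, which lists 28495 genes. The members were thus chosen by their mean FPKM over both groups, so their levels are given below as a description, while the difference between groups was not used by the choice. Just inside the threshold lay ZNF507, ZNF324 and ZNF213 at mean FPKM of 2.03, 2.05 and 2.10, and just outside lay ZNF644, ZNF512 and ZNF628 at 1.97, 1.93 and 1.92. Of the 379 protein-coding ZNF genes under the threshold, 158 were still tested and 221 were too low to be tested.

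The cells were NCI-H1299, an established human line from a lung carcinoma that the labels call lung adenocarcinoma. One group of 3 libraries came from cells silenced for complement factor B (sh-CFB), a protease of the alternative complement pathway, and the other from control cells (sh-NC), also 3 libraries. Both groups share the parental line and carry a silencing or control reagent, and whether each is a clone or a pool is not given in the sources used here. No label describes the replicates as separate cultures, so every p-value below measures the spread between these libraries alone, and that spread may be technical.

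C2H2 zinc finger proteins bind DNA, and some bind RNA or protein, through repeated fingers in which a pair of cysteines and a pair of histidines hold a zinc ion. Many ZNF proteins carry a KRAB box at the start of the protein, which recruits the co-repressor TRIM28 and with it histone methylation and silencing, mostly over transposons. Others carry a SCAN box, through which the proteins pair, or neither box. ZNF genes sit in dense clusters on chromosome 19 and arose largely by tandem duplication.

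The finger is the shared unit of the family, and how its codons are spelled differs between members. In the 99 coding sequences the GC content of the third codon position ran from 28.6 to 92.9%, with a median of 68.1%. One finger with its linker, read from the GENCODE 29 coding sequence on GRCh38, is shown for each of the 6 members that differed between the groups and for a pair of GC-poor members, ZNF24 and ZNF770, so that the spelling can be compared. Capitals mark the codons of the zinc-binding cysteines and histidines, and each run holds 84 bases.
ZNF581, chr19:55644836-55644919, forward strand: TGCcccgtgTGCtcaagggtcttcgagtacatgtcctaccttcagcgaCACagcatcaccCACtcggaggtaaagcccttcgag
ZNF467, chr7:149765935-149766018, reverse strand: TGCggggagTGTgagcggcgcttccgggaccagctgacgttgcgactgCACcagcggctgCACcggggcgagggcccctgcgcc
ZNF408, chr11:46704763-46704846, forward strand: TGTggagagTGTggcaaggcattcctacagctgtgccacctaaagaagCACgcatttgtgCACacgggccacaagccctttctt
ZNF282, chr7:149224189-149224272, forward strand: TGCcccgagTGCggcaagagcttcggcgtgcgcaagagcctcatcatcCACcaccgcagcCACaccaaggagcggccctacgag
ZNF579, chr19:55579421-55579504, reverse strand: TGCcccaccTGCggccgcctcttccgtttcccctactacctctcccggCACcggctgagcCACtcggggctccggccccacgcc
ZNF689, chr16:30605149-30605232, reverse strand: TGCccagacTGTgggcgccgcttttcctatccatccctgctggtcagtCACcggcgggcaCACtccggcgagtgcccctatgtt
ZNF24, chr18:35337499-35337582, reverse strand: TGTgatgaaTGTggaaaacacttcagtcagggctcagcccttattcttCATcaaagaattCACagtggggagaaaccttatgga
ZNF770, chr15:34983267-34983350, reverse strand: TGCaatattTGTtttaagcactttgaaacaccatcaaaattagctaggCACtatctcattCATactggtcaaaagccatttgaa
The runs were picked by a fixed spacing of these codons, so the capitals fall at the same places in all 8 by choice. That placement says nothing about fingers of other spacing. GC content of these runs was 75% in ZNF467 and 73.8% in ZNF579 against 42.9% in ZNF24 and 33.3% in ZNF770. The finger of ZNF581 stood between them at 57.1%. At the third codon position G or C stood in 100% of the codons shown for ZNF282 and in 25% of those shown for ZNF770.

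CFB itself was close to undetected, with 0, 0 and 2 recovered reads in the sh-CFB libraries and 1, 6 and 5 in the sh-NC libraries, so it gave little check of the labels. Library totals ran from 26.2 to 40.0 M reads, and members had between 82 and 20916 recovered reads in a library. Of the line's own markers, KRT8, KRT18 and VIM were high and EPCAM did not exceed 0.125 FPKM. The epithelial gene CDH1 was at 0 in all libraries except sh-CFB replicate 3, and the lung gene SFTPC was at 0 in all except sh-NC replicate 3. Markers of blood, fibroblast, endothelial and erythroid cells (10 genes in the table, of which only CD79A was high enough to test) summed to 1.02 to 1.14 FPKM in sh-CFB and 0.770 to 1.13 in sh-NC, and 0 of them passed the test.

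Silencing of CFB went with few differences among the expressed ZNF genes. ZNF581, ZNF467, ZNF408, ZNF282 and ZNF579 rose in sh-CFB and ZNF689 fell, by limma on log2(FPKM + 0.5) with adjustment over all 12466 tested genes and an adjusted p below 0.05. The other 93 members did not pass. Over all tested genes 1.74% passed as higher, 5.71% as lower and 7.45% in either direction, against 5, 1 and 6 of the 99 members. At an unadjusted p below 0.05, 13 members were higher and 15 lower, beside 7.28% and 18.6% of all tested genes (25.9% in either direction). Groups that did not overlap, with all 3 sh-CFB libraries on one side of all 3 sh-NC libraries, were seen for 18 members that were higher and 21 that were lower, beside 10.0% and 23.6% of all tested genes (33.7% in either direction). The share of members called in either direction, 6.06%, lay near that of all genes.

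ZNF581, which encodes a short protein of 197 residues with 4 fingers and neither box, was by far the most abundant member and the one with the greatest difference. The sh-CFB libraries gave 488, 340 and 317 FPKM in the order of their replicate numbers, and the sh-NC libraries 136, 173 and 196. The lowest sh-CFB library was well above the highest sh-NC library, and the replicate 1 libraries stood at the outer ends of both groups. The means were 382 ± 92.5 and 168 ± 30.2 FPKM (SD, n = 3 each), a log2 difference of 1.17 (SE 0.20, adjusted p = 0.0171 with limma) or 2.25-fold. The gene (ENSG00000171425) lies at chr19:55635459-55645622 on the forward strand. Its annotated span overlaps ZNF580 and CCDC106 on the same strand, so counting could share or drop reads between them. ZNF580 measured 20.9 ± 3.80 FPKM in sh-CFB and 17.1 ± 3.96 in sh-NC (SD, n = 3 each), a log2 difference of 0.29 with an adjusted p of 0.380 by limma. CCDC106 measured 16.6 ± 1.15 and 14.9 ± 3.24 FPKM (SD, n = 3 each), a log2 difference of 0.17 with an adjusted p of 0.546 by limma. Neither neighbour passed the test, and both were more than an order of magnitude below ZNF581 in level.

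ZNF467, a 13-finger factor known for steering marrow stromal cells toward the fat cell fate, showed nearly the same difference at a lower level. Its FPKM was 33.8, 27.7 and 30.4 in sh-CFB against 12.8, 14.9 and 15.2 in sh-NC. The 3 sh-CFB libraries were close together, and the groups were far apart. The means were 30.6 ± 3.09 and 14.3 ± 1.32 FPKM (SD, n = 3 each), a log2 difference of 1.07 (SE 0.12, adjusted p = 0.00788 with limma) or 2.10-fold. The gene (ENSG00000181444) lies at chr7:149764182-149773479 on the reverse strand.

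ZNF408, mutated in inherited retinal disease, had FPKM of 12.7, 12.3 and 12.6 in sh-CFB against 8.54, 8.85 and 7.70 in sh-NC. Here all 3 sh-CFB libraries agreed closely and the replicate 1 library did not stand apart. The means were 12.5 ± 0.212 and 8.36 ± 0.593 FPKM (SD, n = 3 each), a log2 difference of 0.56 (SE 0.10, adjusted p = 0.0236 with limma). The gene (ENSG00000175213) lies at chr11:46700818-46705912 on the forward strand.

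ZNF282, a KRAB protein first described as a repressor of a leukaemia virus promoter, had FPKM of 48.5, 41.3 and 38.2 in sh-CFB against 28.9, 32.1 and 28.1 in sh-NC. The groups did not overlap, and sh-CFB replicate 1 was the highest library. The means were 42.7 ± 5.29 and 29.7 ± 2.10 FPKM (SD, n = 3 each), a log2 difference of 0.51 (SE 0.12, adjusted p = 0.0414 with limma). The gene (ENSG00000170265) lies at chr7:149195485-149226248 on the forward strand, on the chromosome that also holds ZNF467.

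ZNF579, an 8-finger protein with neither box, had FPKM of 22.7, 19.9 and 19.5 in sh-CFB against 13.9, 15.4 and 14.7 in sh-NC. Its groups were separate, with sh-CFB replicate 1 highest and sh-NC replicate 1 lowest. The means were 20.7 ± 1.78 and 14.7 ± 0.750 FPKM (SD, n = 3 each), a log2 difference of 0.48 (SE 0.10, adjusted p = 0.0374 with limma). The gene (ENSG00000218891) lies at chr19:55576770-55580845 on the reverse strand.

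ZNF689, a KRAB protein with 10 fingers, was the only member past the test in the lower direction. Its FPKM was 4.60, 5.72 and 5.62 in sh-CFB against 8.32, 9.98 and 7.39 in sh-NC. Every sh-CFB library lay below every sh-NC library. The means were 5.31 ± 0.620 and 8.56 ± 1.31 FPKM (SD, n = 3 each), a log2 difference of -0.64 (SE 0.15, adjusted p = 0.0466 with limma) or 0.643-fold. The gene (ENSG00000156853) lies at chr16:30602558-30624012 on the reverse strand.

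**Figure D1:**
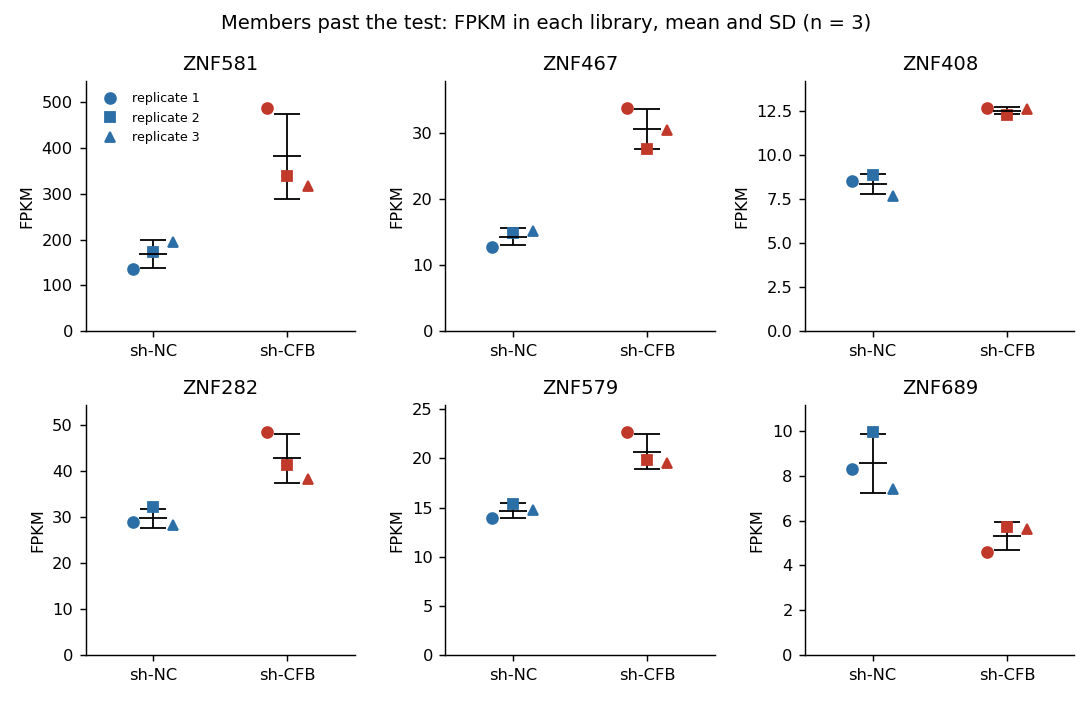
FPKM of the 6 members past the test in each library, sh-NC in blue and sh-CFB in red, with the replicate number as the symbol and the mean and SD of 3 libraries as a bar. The groups do not overlap in any panel, from ZNF581 (317 to 488 FPKM in sh-CFB against 136 to 196 in sh-NC) to ZNF689 (4.60 to 5.72 against 7.39 to 9.98).

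All 6 calls kept their direction in every setting tried, but few kept their side of the threshold when a library was left out. ZNF467 stayed past the test with any 1 library left out except sh-NC replicate 2, without which its adjusted p was 0.0618 with limma. ZNF581 lost its call without sh-NC replicate 2 (adjusted p = 0.0879) and without sh-CFB replicate 2 (0.0630). ZNF408 kept its call only without sh-CFB replicate 1 (0.0460), and its adjusted p lay between 0.0555 and 0.115 without any 1 of the other 5 libraries. ZNF282 (0.0594 to 0.131), ZNF579 (0.0708 to 0.144) and ZNF689 (0.0527 to 0.200) did not pass with any single library left out. Calls over all tested genes, 217 higher and 712 lower with all 6 libraries, also fell. They were 6 and 14 without sh-NC replicate 2 and 8 and 31 without sh-CFB replicate 2. With both replicate 1 libraries left out, ZNF581, ZNF467 and ZNF408 passed. Scaling the libraries by median-of-ratios factors left ZNF467 and ZNF408 past the test and 0 members lower, with 17 members higher and 8 lower at an unadjusted p below 0.05.

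Members that did not pass ran in a continuous range from ZNF629 to ZNF296. ZNF629 had FPKM of 2.74, 3.96 and 4.16 in sh-CFB against 7.89, 6.27 and 5.47 in sh-NC, with no overlap between the groups. Its log2 difference of -0.78 (SE 0.19) was the lowest of the 99 and had an adjusted p of 0.0532 with limma, just outside the threshold. ZNF296, a gene known from pluripotent cells, had FPKM of 20.9, 15.2 and 12.3 in sh-CFB against 8.35, 10.3 and 11.7 in sh-NC, a log2 difference of 0.63 (SE 0.20) with an adjusted p of 0.102 by limma. The SE of a member's log2 difference ran from 0.09 to 0.34, with a median of 0.16. Of the 99 members 42 lay above 0 and 57 below, and their median log2 difference was -0.04 beside -0.15 for all tested genes.

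**Figure D2:**
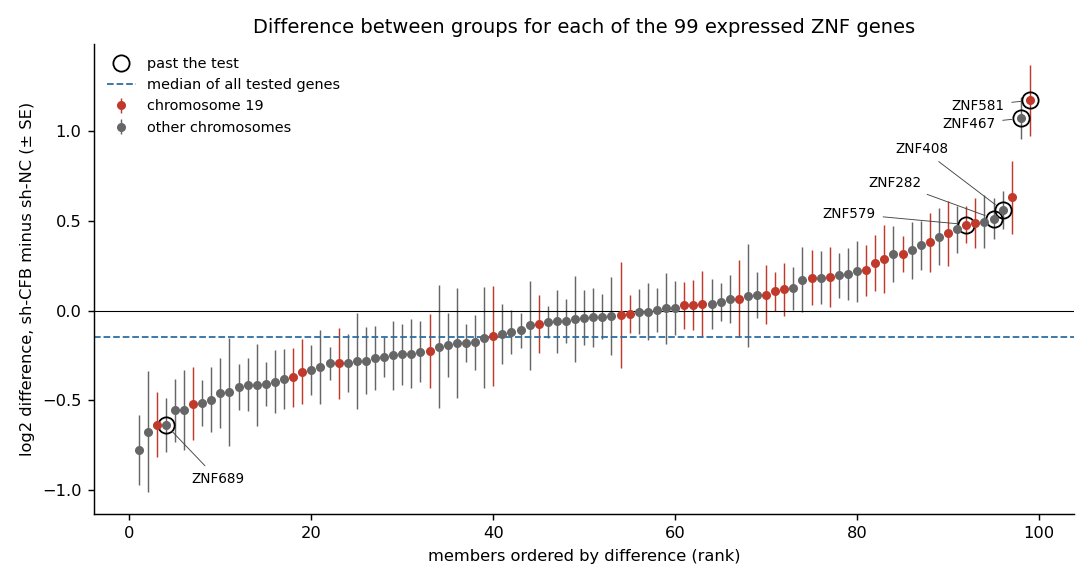
Log2 difference (sh-CFB minus sh-NC, with SE) of each of the 99 members in order, chromosome 19 in red and other chromosomes in grey, with the 6 members past the test circled. ZNF581 (1.17) and ZNF467 (1.07) stand apart from the rest, which run from -0.78 to 0.63, and the dashed line marks the median of all tested genes at -0.15.

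That median depended on scaling and on single libraries. Median-of-ratios factors moved the median of all tested genes by 0.16, from -0.15 to 0.02, and that of the members to 0.14. It was 0.03 without sh-CFB replicate 1 and 0.02 without sh-NC replicate 1, and it fell to -0.07, -0.14 and -0.11 without sh-CFB replicate 2, sh-CFB replicate 3 and sh-NC replicate 3. In each of these settings the members' median was above that of all tested genes. With the correction for GC content and length described below, both medians were 0.01. As these are bulk samples, fewer cells that express a gene and less RNA per cell cannot be told apart.

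Levels of the members spanned 2 orders of magnitude, with 52 of 99 under 5 FPKM and 7 at 20 FPKM or more. After ZNF581 (mean 275 FPKM) the highest were ZNF428 (52.3), ZNF787 (37.4), ZNF622 (36.4), ZNF282 (36.2) and ZNF768 (32.9), the last known to bind an ancient transposon repeat. ZNF428 gave 53.1, 47.0 and 55.8 FPKM in sh-CFB against 50.7, 49.99 and 57.2 in sh-NC, and its groups overlapped. ZNF787 gave 54.2, 38.3 and 36.8 FPKM in sh-CFB against 25.6, 33.9 and 35.6 in sh-NC, and its log2 difference of 0.43 (adjusted p = 0.188 with limma) was 0.11 without both replicate 1 libraries. ZNF768 gave 30.4, 32.2 and 33.9 FPKM in sh-CFB against 32.5, 33.8 and 34.5 in sh-NC, and its groups overlapped. Among these 6 genes only ZNF581 and ZNF282 passed the test.

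The role list of ribosome and RNA proteins, which need not hold all such members, covered 6 members. Of these 0 passed the test, beside 7.45% of all tested genes. At an unadjusted p below 0.05 with limma, 4 were lower and 0 higher, beside 18.6% and 7.28% of all tested genes. The median log2 difference of these 6 was -0.29 as deposited, -0.10 with median-of-ratios factors and -0.16 with quantile normalization. ZNF706 lay above 0 under both scalings. ZNF622, which helps to release a transport factor from the large ribosomal subunit, had FPKM of 32.4, 30.5 and 35.0 in sh-CFB against 38.4, 39.8 and 42.0 in sh-NC, a log2 difference of -0.29 with an adjusted p of 0.0993 by limma. Its groups did not overlap. ZNF598, the ubiquitin ligase that marks collided ribosomes, had FPKM of 11.5, 10.9 and 10.7 in sh-CFB against 12.03, 14.7 and 13.3 in sh-NC, a log2 difference of -0.26 with an adjusted p of 0.191. ZNF207, a spindle and splicing factor (-0.50), ZNF346, which binds double-stranded RNA (-0.41), ZNF830, a splicing factor (-0.29), and ZNF706, a protein of 76 residues (-0.12), had adjusted p-values of 0.139, 0.134, 0.300 and 0.577 with limma.

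The role lists of co-regulators (5 members) and DNA-bound factors (6 members) held no member past the test. Over all tested genes 7.45% passed in either direction, and 25.9% had an unadjusted p below 0.05 with limma. Lists this short cannot be told apart from those shares. The co-regulators had a median log2 difference of -0.08, and 0 of them passed the test with limma, also at an unadjusted p below 0.05. ZNF687 (-0.01) and ZNF592 (-0.28) are partners in one chromatin reader complex, ZNF335 (-0.01) works with histone methyltransferases, ZNF318 (-0.31) is known for its part in antibody class expression in B cells, and ZNF217 (-0.08) is an amplified oncogene of breast tumours. ZNF217 shows how wide the spread could be, with 5.84, 9.19 and 8.86 FPKM in sh-CFB against 11.3, 8.28 and 6.04 in sh-NC. The lowest and the highest of its libraries were both labelled replicate 1. The DNA-bound factors had a median of -0.11, again with 0 past the test or at an unadjusted p below 0.05. Among them were ZNF281, linked to stem cell identity (-0.15), ZNF24 (-0.05), ZNF384, a partner in leukaemia gene fusions (-0.24), ZNF746, a KRAB protein and substrate of the ubiquitin ligase parkin (-0.06), ZNF395 (0.01) and ZNF367 (-0.41).

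KRAB proteins were a minority among the expressed genes. A KRAB box was found in 30 of the 99 members (30.3%) and in 76.3% of the protein-coding ZNF genes under the threshold. The rule used level, so this describes which genes it kept. Among the 30, ZNF282 rose and ZNF689 fell, 28 did not pass, and the median log2 difference was -0.05. Among the 66 members with neither KRAB nor SCAN box, 4 rose (ZNF581, ZNF467, ZNF408 and ZNF579), 0 fell, and the median was -0.04. Of the 10 members with a SCAN box, 7 of which also had a KRAB box, 0 passed with limma, and 1 was lower at an unadjusted p below 0.05. Over all tested genes 1.74% passed as higher and 5.71% as lower, and 18.6% were lower at an unadjusted p below 0.05. ZNF274, a KRAB and SCAN protein known to bind the 3′ ends of ZNF genes and bring silencing to them, had FPKM of 2.16, 2.75 and 2.86 in sh-CFB against 4.17, 3.25 and 2.86 in sh-NC. Its log2 difference was -0.34 with an adjusted p of 0.277 by limma, and its lowest sh-NC library was level with the highest sh-CFB library.

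Finger number ran from 0 to 31 by a pattern search of the coding sequence, which misses fingers of other kinds. The 20 members with 3 fingers or fewer had a median log2 difference of -0.27, and 0 of them passed the test with limma. At an unadjusted p below 0.05, 5 of them were lower, beside 18.6% of all tested genes. Past the test, 1.74% of all tested genes were higher and 5.71% lower. The 30 members with 4 to 7 fingers had a median of -0.0027 with 2 higher, the 29 with 8 to 12 had -0.03 with 2 higher and 1 lower, and the 20 with 13 or more had 0.0032 with 1 higher. Over the 99 members, which share the same libraries, the Spearman correlation of log2 difference with finger number was 0.14. After the correction for GC content and length described below the median of the group with the fewest fingers was -0.10.

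The co-repressor machinery that KRAB proteins use was measured as a list of 26 genes, of which 0 rose, 5 fell and 21 did not pass, beside 1.74% higher and 5.71% lower over all tested genes. The list was chosen with earlier results of these data known, and no test compared it with other genes. DNMT1, the maintenance DNA methyltransferase, had FPKM of 5.23, 6.20 and 6.07 in sh-CFB against 12.1, 11.4 and 9.69 in sh-NC, a log2 difference of -0.87 with an adjusted p of 0.0135 by limma. Its groups were well apart. UHRF1, which guides DNMT1 to replicated DNA, differed by -0.85 (adjusted p = 0.0263), with 7.91 ± 1.52 FPKM in sh-CFB beside 14.6 ± 1.87 in sh-NC (SD, n = 3 each). HDAC1 (-0.63, 0.0209) and MTA2 (-0.60, 0.0193) belong to the NuRD deacetylase complex and PPHLN1 (-0.65, 0.0479) to the HUSH silencing complex.

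TRIM28, the direct partner of the KRAB box, did not pass, with 191, 158 and 157 FPKM in sh-CFB against 139, 157 and 173 in sh-NC and a log2 difference of 0.11 (adjusted p = 0.625 with limma). Its groups overlapped. SETDB1, the histone methyltransferase that TRIM28 recruits, had a log2 difference of -0.38 with an adjusted p of 0.241. The list's median was -0.36 as deposited and -0.18 with median-of-ratios factors (0 higher and 2 lower). It was -0.14 after correction for GC content and length (0 higher and 6 lower). With that correction PPHLN1 did not pass (-0.43, adjusted p = 0.189 with limma), while MBD3 (-0.59, 0.0235) and RBBP7 (-0.38, 0.0338) did. Without sh-CFB replicate 2 or without sh-NC replicate 2, 0 of the 26 passed, and without sh-NC replicate 1 only 1 did. Over all tested genes the higher and lower counts in these settings were 8 and 31, 6 and 14, and 43 and 206.

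Chromosome 19 held 29 of the 99 members, or 29.3% beside 7.51% of all tested genes. Chromosomes 16 and 7 followed with 16 and 11 members. On chromosome 19, 2 members rose (ZNF581 and ZNF579), 0 fell, 19 of 29 lay above 0 and the median log2 difference was 0.09. On the other chromosomes 3 of 70 rose (ZNF467, ZNF408 and ZNF282), 1 fell (ZNF689), 23 lay above 0 and the median was -0.12. The medians differed by 0.20. Among members with a KRAB box the order was the other way, at -0.23 on chromosome 19 (n = 9, of which 3 lay above 0) and 0.0026 elsewhere (n = 21, 11 above 0). The 19 chromosome 19 members with neither box had a median of 0.19, and 15 of them lay above 0. Median GC content of these 3 sets was 50.4, 56.3 and 61.7%. Over genes of any kind the chromosome 19 median was also the higher, at 0.09 over 936 tested genes (57 higher, 30 lower) against -0.16 over 11461 on other chromosomes (160 higher, 682 lower).

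The offset of chromosome 19 followed the replicate 1 libraries. With values taken per library relative to the mean of all 6, the median of chromosome 19 members minus that of the others was 0.26 in sh-CFB replicate 1 and -0.22 in sh-NC replicate 1. In the other 4 libraries it lay between -0.06 and 0.03. The difference of 0.20 between the medians was 0.09 without sh-CFB replicate 1, 0.12 without sh-NC replicate 1 and 0.01 without both. Over all tested genes the medians without both were 0.07 on chromosome 19 and -0.01 elsewhere. Members on chromosome 19 were also richer in GC, with a median transcript GC content of 58.8% against 55.4%, and at the third codon position the median was 75.3% against 67.9%.

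Splitting the 99 members into 3 equal groups by transcript GC content, at 51.4 and 60.0%, gave offsets that differed between the groups. In the GC-poor group chromosome 19 members had a median of -0.18 (n = 10) and the others -0.20 (n = 23). In the middle group the medians were 0.16 (n = 6) and -0.19 (n = 27), and in the GC-rich group 0.29 (n = 13) and 0.02 (n = 20). All tested genes within the same GC limits gave -0.14 on chromosome 19 and -0.22 elsewhere in the GC-poor range, 0.03 and -0.11 in the middle, and 0.20 and 0.12 in the GC-rich range. Without both replicate 1 libraries the members' medians, chromosome 19 first, were -0.04 and 0.08 in the GC-poor group, 0.17 and -0.05 in the middle group, and 0.02 and 0.12 in the GC-rich group, so chromosome 19 was the higher only in the middle one. The plot of members by chromosome and GC content shows the overlap of single members, and no test was made of these medians.

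**Figure D3:**
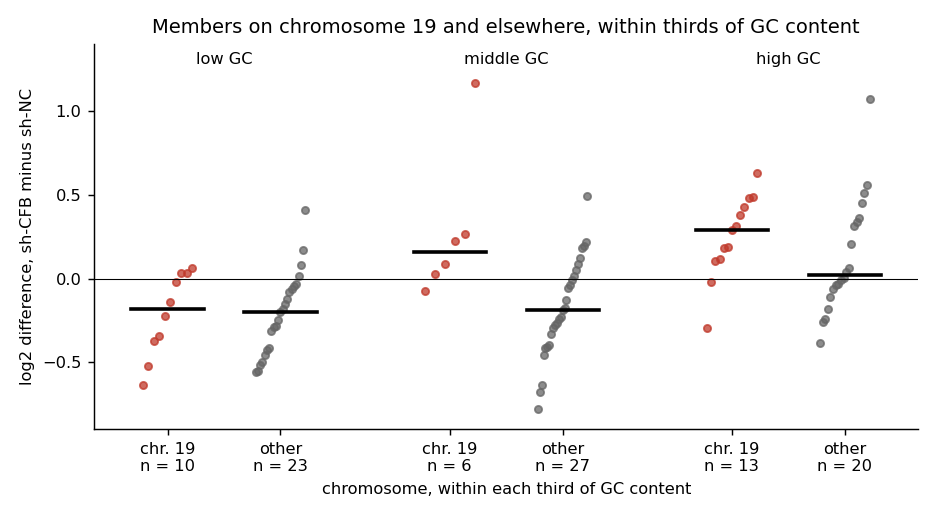
Log2 difference (sh-CFB minus sh-NC) of each member, split by GC content into 3 groups of 33 and by chromosome 19 (red) or other (grey), with medians as black bars. Chromosome 19 medians run from -0.18 through 0.16 to 0.29 and those of other chromosomes from -0.20 through -0.19 to 0.02, and the points of the pair overlap in each group.

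The runs of neighbouring members on chromosome 19 lay on different sides of 0. ZNF579, ZNF524, ZNF865, ZNF580 and ZNF581, in that order between positions 55576770 and 55645622, all lay above 0, at 0.48, 0.19, 0.11, 0.29 and 1.17, and only the outer pair passed the test. None of the 5 carries a KRAB box, and their median GC content was 64.9%. ZNF274, ZNF837, ZNF584 and ZNF324, between positions 58183029 and 58475436, all lay below 0, at -0.34, -0.29, -0.64 and -0.08, and 0 of them passed (adjusted p from 0.0747 to 0.805 with limma). ZNF584, the lowest of that run, had FPKM of 2.64, 2.73 and 3.86 in sh-CFB against 5.92, 4.64 and 4.53 in sh-NC, with no overlap. In the run of ZNF575, ZNF576 and ZNF428 the values were 0.49, 0.26 and -0.02, in that of ZNF574 and ZNF526 they were 0.31 and 0.09, and in that of ZNF787 and ZNF444 they were 0.43 and 0.03. After the GC and length correction ZNF865 (-0.07) and ZNF524 (-0.02) no longer lay above 0, and with median-of-ratios factors ZNF428 (0.18) and ZNF324 (0.09) did.

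GC content and the difference between groups went together over the members. Spearman's correlation was 0.49 over the 99 members, 0.56 over the 29 on chromosome 19, 0.45 over the other 70, and 0.31 over 12397 tested genes with a GC value. These points share the same 6 libraries and are not independent, so no p is attached. With the GC content of the third codon position in place of that of the whole transcript the correlation over members was 0.44. All 4 calls of the GC-rich group were higher, and 22 of its 33 members lay above 0 with a median of 0.18. In the GC-poor group 7 of 33 lay above 0 with a median of -0.20, and 0 passed the test with limma (1 higher and 7 lower at an unadjusted p below 0.05). The middle group had 1 member higher (ZNF581) and 1 lower (ZNF689) with a median of -0.08. All tested genes within the same GC limits ran alike. In the GC-rich range 1332 of 1980 lay above 0, with 119 higher and 30 lower past the test. In the GC-poor range 1310 of 7025 lay above 0, with 92 higher and 1477 lower at an unadjusted p below 0.05. In the middle range 86 of 3392 were higher and 231 lower past the test.

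**Figure D4:**
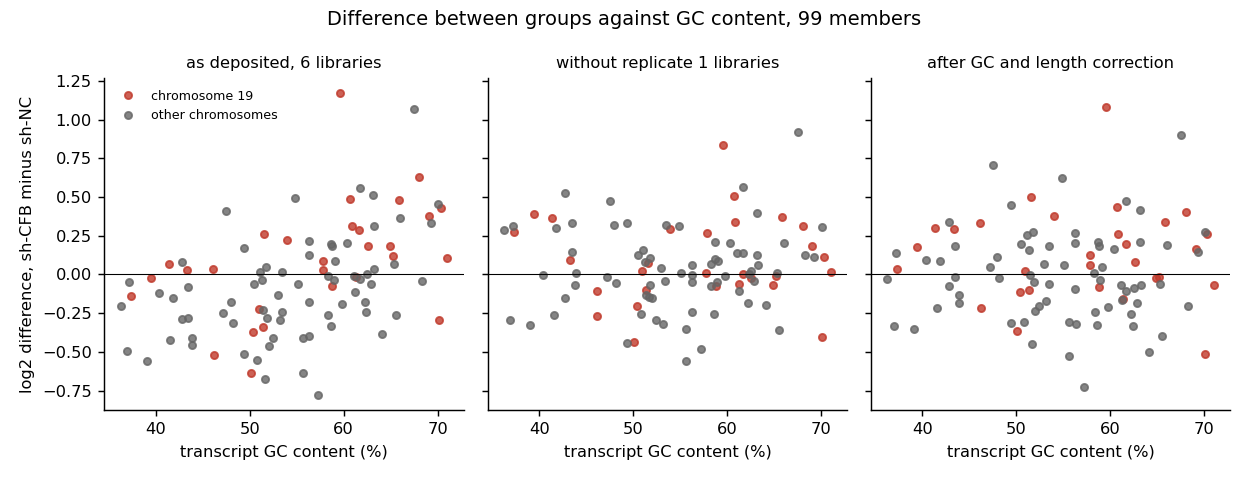
Log2 difference (sh-CFB minus sh-NC) against transcript GC content for the 99 members, as deposited (left), without both replicate 1 libraries (middle) and after the GC and length correction (right), chromosome 19 in red. The Spearman correlation is 0.49, 0.08 and 0.03 from left to right, and ZNF581 and ZNF467 stay highest in all 3 panels.

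The relation was strongest in 1 library of each group. Over the members, the correlation of a library's deviation with GC content was 0.67, 0.05 and -0.03 in sh-CFB replicates 1, 2 and 3 and -0.68, -0.44 and 0.13 in sh-NC replicates 1, 2 and 3. In the GC-poor group sh-CFB replicate 1 was the lowest of the 6 libraries for 28 of 33 members and sh-NC replicate 1 the highest for 25. In the GC-rich group sh-CFB replicate 1 was the highest for 19 and sh-NC replicate 1 the lowest for 15. Over all members the correlation was 0.28 without sh-CFB replicate 1, 0.32 without sh-NC replicate 1, and 0.08 without both.

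GC-poor members with wide spreads show this library by library. ZNF770, whose finger is printed above, had FPKM of 1.58, 2.67 and 2.75 in sh-CFB against 4.21, 3.10 and 1.42 in sh-NC. Its groups overlapped, with sh-NC replicate 3 the lowest and sh-NC replicate 1 the highest library. ZNF24 had 1.55, 2.42 and 2.57 FPKM in sh-CFB against 2.98, 2.23 and 1.62 in sh-NC, with sh-CFB replicate 1 the lowest and sh-NC replicate 1 the highest. The nuclear long RNAs MALAT1 (5.25, 14.1 and 13.6 FPKM in sh-CFB against 16.1, 8.91 and 5.32 in sh-NC) and NEAT1 (2.58, 7.60 and 8.09, then 8.49, 4.38 and 2.81) were also low in sh-CFB replicate 1 and sh-NC replicate 3 and high in sh-NC replicate 1. Library depth was lowest in sh-CFB replicate 1, at 26.2 M reads. The mitochondrial genes on the same list of 5 RNA quality genes were also lowest in sh-CFB replicate 1, at 1952 (MT-CO1), 599 (MT-ND1) and 457 FPKM (MT-CYB). Unlike the nuclear RNAs, MT-CO1 (3574 FPKM) and MT-CYB (945 FPKM) were highest in sh-NC replicate 3, and MT-ND1 (999 FPKM) in sh-CFB replicate 3. Of the 5 genes 0 passed the test with limma, and their log2 differences ran from -0.56 (MT-CYB) to 0.19 (NEAT1). The part of RNA quality, depth or library handling in the members' differences was not tested.

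**Figure D5:**
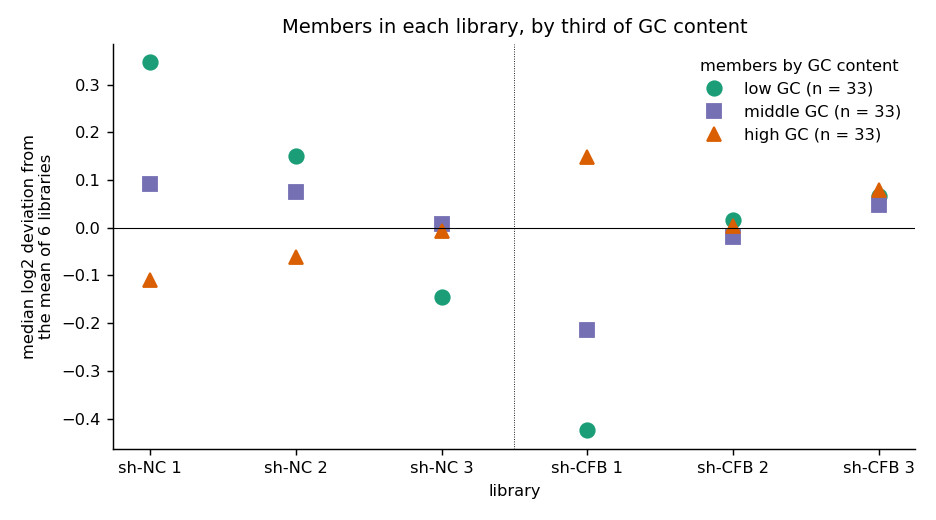
Median log2 deviation from the mean of the 6 libraries for the members in each library, for the GC-poor, middle and GC-rich groups of 33. The 3 groups lie far apart in sh-NC replicate 1 (0.35, 0.09 and -0.11) and sh-CFB replicate 1 (-0.42, -0.21 and 0.15) and close together in sh-CFB replicates 2 and 3.

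With each library's deviation corrected for GC content and gene length, 9 members were higher and 3 lower, beside 4.67 and 6.09% of all genes tested that way (10.8% in either direction). The 6 members named above were among them, with ZNF581 at 1.08 (adjusted p = 0.00967) and ZNF467 at 0.90 (0.00276) in limma. The added higher members were ZNF133 (0.71, adjusted p = 0.0252), ZNF771 (0.62, 0.0499), ZNF251 (0.45, 0.0375) and ZNF71 (0.38, 0.0461), of which ZNF133, ZNF251 and ZNF71 carry a KRAB box. The added lower members were ZNF629 (-0.73, 0.0279) and the ribosome ligase ZNF598 (-0.40, 0.0269). In the deposited values ZNF133 did not pass (0.41, adjusted p = 0.159 with limma). Its groups did not overlap, with 3.23, 2.88 and 2.92 FPKM in sh-CFB against 2.57, 2.06 and 1.83 in sh-NC. Such separation in the higher direction was seen for 10.0% of all tested genes. The deposited values of ZNF251 overlapped, at 2.03, 2.60 and 3.24 FPKM in sh-CFB against 2.31, 2.37 and 2.05 in sh-NC. ZNF771 overlaps DCTPP1 on the opposite strand, a gene at a mean of 48.0 FPKM beside 6.83 for ZNF771, and without a stated strand setting reads of the pair cannot be told apart.

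Corrected medians were 0.12 on chromosome 19 and -0.03 elsewhere, 0.01 over all members, and 0.01 over all tested genes. Single libraries again decided many of these calls. With 1 library left out, the corrected counts ranged from 1 higher (without sh-NC replicate 2) to 4 higher, and from 0 lower to 3 lower (without sh-NC replicate 3). Over all genes tested that way they ranged from 18 higher and 31 lower to 433 and 584, in the same 2 settings.

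Of the 379 protein-coding ZNF genes under the threshold 208 were on chromosome 19, and their median GC content was 42.2% against 56.3% among the members. Of the 158 that could be tested, 0 passed with limma and the median log2 difference was -0.10. At an unadjusted p below 0.05, 1 was higher and 9 lower, beside 7.28% and 18.6% of all tested genes. Their median level was 0.877 FPKM, where the scale of log2(FPKM + 0.5) understates differences. After the GC and length correction ZNF561 (0.58, adjusted p = 0.0220), ZNF33B (0.50, 0.0464) and ZNF8 (0.49, 0.0386) were higher and 0 lower. Of all genes tested that way 4.67% were higher and 6.09% lower. ZFP genes gave 1 higher of 15, ZFP36, which encodes an RNA-binding protein with another type of finger. Of 36 ZBTB genes, ZBTB9 fell (-0.73, adjusted p = 0.0479) and 0 rose. Of 10 ZSCAN and 5 ZKSCAN genes 0 passed, with 1 of each lower at an unadjusted p below 0.05.

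Promoter windows of 250 bases before the transcription start, from RefSeq on GRCh38.p14, were found for 84 of the 99 members (109 windows). The median GC content of these windows was 63.6% against 58.0% over all 35116 windows of the RefSeq set (27305 genes). That set was not filtered by level, while the members were chosen by level, so the shares below are not matched for expression. The letters GGGCGG, the core of the GC box that SP family factors bind, were present on either strand in 68.8% of member windows and 42.6% of all windows. TGANTCA, the AP-1 motif, was present in 4.59% against 6.57%, and TGACGTCA, the cyclic AMP response element, in 3.67% against 1.65%. Of the 5 members that rose, 4 of 5 windows held GGGCGG and 0 held either of the other motifs. A match describes letters in the window and does not show a bound site.

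The members whose 6 log2 values ran most like those of ZNF581 were ZNF219, a partner of SOX9 in cartilage (Pearson 0.997), ZNF771 (0.988), ZNF579 (0.984), ZNF467 (0.972) and ZNF296 (0.955). With 6 libraries in 2 groups this likeness reflects the group difference and the replicate 1 libraries together, and it is given as a description. ZNF219 had FPKM of 7.67, 6.53 and 6.43 in sh-CFB against 4.39, 5.10 and 5.17 in sh-NC, with no overlap between the groups. Its log2 difference of 0.45 had an adjusted p of 0.0784 with limma.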

How the data were processed

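RNA was measured by sequencing in 6 libraries of NCI-H1299 cells, 3 sh-CFB and 3 sh-NC. The library kit was stranded and selected poly(A) RNA, per the labels' protocols. FPKM values were made by the authors and deposited as 1 table for all libraries. Trimmomatic 0.39, STAR 2.7.3a, featureCounts 2.0.1 and the build GRCh38 are named in the submitters' processing notes without their order or settings. The strand setting, the annotation release and how reads with several matches were counted, which bears on duplicated ZNF genes, are not given here in labels or headers. The table of counts named in the labels was not analysed here. The names of the deposited columns are of the siRNA kind while titles name short hairpins, so the group names are used without a reagent.

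Reads were recovered from the steps of the FPKM values, with all 28495 genes whole within 0.001 read, and 83 of 99 members had a recovered length within 5% of the annotation. Genes with 1 to 20 reads had an even number in 61.3 to 62.5% of cases, so a fragment may be counted more than once. Symbols came from the name table (22492 genes), and type, position, transcript GC content and coding sequence from GENCODE 29. KRAB and SCAN boxes were found with sequence profiles in pyhmmer 0.12.3 at an E-value of 1e-05, and fingers by pattern.

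All 12466 genes whose mean FPKM reached 0.5 were tested as log2(FPKM + 0.5), a scale that understates differences of low genes, with limma 3.58.1 in R 4.3.3, an intensity trend and p-values adjusted by Benjamini and Hochberg over the 12466 genes, at a threshold of 0.05. The script was tested on simulated data, drawn with a fixed spread and without shifts of single libraries by GC content. That test therefore does not cover the library shifts described above. The correction for GC content and length removed from each library's deviation a spline of each with 5 degrees of freedom (12397 genes). Tables and figures were made in Python 3.11.15 (pandas 2.3.3, numpy 2.4.6, matplotlib 3.10.9, scipy 1.17.1). Alternatives changed the pseudocount, filter, scaling, test, member threshold, block and libraries. Leaving out libraries after the correction was added after seeing the data.

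The members and lists were chosen with earlier results of these data known. Members named in the text are those past either test, the 6 of highest level, those on lists of roles, those next to the threshold, those in the chromosome 19 runs with neighbours within 250 kb, and the 5 most like ZNF581. ZNF629 was also named as the member of lowest difference, and ZNF770, ZBTB9, ZFP36 and ZNF genes under the threshold after their values were seen. Same-numbered libraries of the groups did not deviate together (correlations of deviations -0.54, 0.07 and -0.45), so the numbers were not taken as pairs.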

Additional observations from a re-analysis of the deposited data

How the results depend on the processing

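The 5 higher and 1 lower members depended on most settings. Higher and lower counts were 2 and 0 with no filter on low values, 2 and 0 with median-of-ratios factors, 7 and 1 with quantile normalization, 3 and 0 with voom on recovered reads, 9 and 3 when GC and length were corrected, and 3 and 0 without both replicate 1 libraries. With each library left out in turn, 0 to 3 members were higher and 0 lower (7 to 17 lower at an unadjusted p below 0.05 with limma). Calls over all tested genes also fell in each of these settings. They were fewest without sh-NC replicate 2 (6 higher and 14 lower) and without sh-CFB replicate 2 (8 and 31). The members' lower count was 2 with a pseudocount of 0.1 and 3 when only genes of at least 1 FPKM were tested. With the replicate number as a block, 0 were higher and 0 lower, also with the GC and length correction (8 and 5, then 12 and 10, at an unadjusted p below 0.05), where the smallest adjusted p of a called member was 0.148 and 0.0953. Of all tested genes 0 passed with the block either, with or without the correction. The numbers do not pair the libraries, so this block is only 1 more setting. Over all tested genes 217 were higher and 712 lower, against 68 and 138 with median-of-ratios factors, 465 and 636 with quantile normalization and 579 and 755 after correction.

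The members' median of -0.04 became 0.14 with median-of-ratios factors and 0.11 with quantile normalization, and it ranged from -0.14 to 0.033 with 1 library left out. The chromosome 19 offset of 0.20 was 0.014 without both replicate 1 libraries and 0.33 for members of at least 5 FPKM, with 0.09 to 0.28 when 1 library was left out. The correlation with GC content of 0.49 was 0.027 after the GC and length correction, with and without the block, and 0.076 without both replicate 1 libraries, with 0.28 to 0.58 when 1 library was left out. After that correction the 9 higher members became 1 to 4 with 1 library left out and 5 without both replicate 1 libraries, and the 3 lower members became 0 to 3 and 1. The cause of these shifts was not tested. Depth limits the members of fewest reads most, and with 3 libraries a group the smallest two-sided exact permutation p for a single gene is 0.1.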
